A study of Mus musculus with 12 samples.

Results

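The regions described are places in the mouse genome that were called accessible to DNase I in every library of asynchronous G1E cells and in no library of the other 3 groups of the series. They were chosen by merging the peaks of the 12 replicate lists on chromosomes 1 to 19 wherever peaks shared at least 1 bp. A merged region was kept when it held a peak of all 3 asynchronous G1E lists and of none of the other 9 lists. This left 3448 of 263720 merged regions (1.31%), called G1E-asynchronous sites from here on. Since presence and absence of peaks selected the sites, their absence from the other lists is a description with no test.

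G1E cells are an immature mouse erythroid line that lacks GATA1, derived per the labels from strain 129 embryonic stem cells in which the GATA-1 gene was disrupted. G1E-ER4 is a subline with an estradiol-inducible GATA1, and all its libraries, asynchronous and mitotic, came from cells given 100 nM estradiol for 22 h. Mitotic cells of both lines had 200 ng/ml nocodazole for 7 h and were sorted for phosphorylated histone H3. The groups were therefore asynchronous G1E (no GATA1, no estradiol, no nocodazole), mitotic G1E, asynchronous G1E-ER4 and mitotic G1E-ER4, with 3 libraries each. G1E cells are labelled Ter119-negative with or without CD71, and G1E-ER4 cells positive for both, so that the lines also differ in stage of maturation. GATA1, estradiol, maturation and subline cannot be told apart in this design, nor can mitosis, nocodazole and sorting. Whether replicates were grown as separate cultures is not stated in the labels. The p-values below therefore measure the spread between these libraries, which may be technical.

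DNase I cuts chromatin most readily where regulatory proteins have displaced or loosened nucleosomes, as at promoters, enhancers and insulators. In erythroid differentiation, GATA1 takes over from its relative GATA2 at many regulatory sites, and it both activates red cell genes and silences genes of the progenitor state. During mitosis chromosomes condense and many transcription factors leave chromatin, while part of the accessible sites persist. Sites found in cycling cells without GATA1 and missing after its restoration, and also missing in mitosis, are the kind of region described here.

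Each list held 100000 peaks in order of signal, the value that the authors' peak caller gave each peak. Rank 1 is the highest signal, and a site that falls below rank 100000 in a library is missing from its list even if it is accessible. The lists differed in shape. Median peak width was 763, 356 and 415 bp in asynchronous G1E replicates 1, 2 and 3, and 472 to 1195 bp in the other 9 lists. Covered length ran from 44.7 Mb in asynchronous G1E replicate 2 to 180 Mb in asynchronous G1E-ER4 replicate 1. Signal at rank 10000 was 3.19 to 6.30 times that of the last peak in asynchronous G1E, 3.82 to 4.25 times in asynchronous G1E-ER4, 1.86 to 2.67 times in mitotic G1E and 2.07 to 2.27 times in mitotic G1E-ER4. Read depth is unknown from these lists.

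The asynchronous G1E lists held more regions of their own than those of any other group. All 3 asynchronous G1E lists shared 40059 regions, and the 3448 sites were 8.61% of them. The matching sets, chosen by the same rule, had 473 regions in asynchronous G1E-ER4 (0.179% of all merged regions), 258 in mitotic G1E-ER4 (0.0978%) and 116 in mitotic G1E (0.044%). They made up 1.16% of 40892, 0.770% of 33500 and 0.334% of 34681 regions shared by the 3 lists of their group. The ratio of the G1E to the G1E-ER4 asynchronous set was 7.29. It was 2.92, 3.09 or 3.73 without replicate 2, 1 or 3 of asynchronous G1E-ER4, whose set then needed a peak in only 2 lists. Without replicate 1, 2 or 3 of asynchronous G1E, whose set then needed only 2, it was 9.39, 10.3 or 10.1. The ratio was 102 when every list was limited to the same covered length, a setting chosen after seeing the peak widths. This left 1531 G1E-asynchronous sites against 15 in asynchronous G1E-ER4. That setting makes the numbers of peaks unequal: 22259, 99078 and 63972 were used from asynchronous G1E replicates 1, 2 and 3, but 15280, 33319 and 36532 from asynchronous G1E-ER4 and 12075 to 55067 from the mitotic lists.

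Most accessible regions of asynchronous G1E were not of this kind. Of the 40059 regions, 26016 (64.9%) had a peak in at least 1 list of each of the other 3 groups, and 16145 (40.3%) had one in all 9 other lists. Another 3078 (7.68%) were found beyond asynchronous G1E in asynchronous G1E-ER4 alone, 1439 (3.59%) in mitotic G1E alone and 230 (0.574%) in mitotic G1E-ER4 alone. The number of other lists holding a region went with its place in the G1E lists. Median mean rank over the 3 G1E lists was 10922 for the regions of all 9 other lists, 26901 for those of 5 others and 40605 for those of 1 other, beside 44455 for the G1E-asynchronous sites. Median width had the same order, at 3342, 1189, 759 and 630 bp. A wide region has more chance to meet a peak of another list, so width and number of lists are not independent.

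The same pattern was then measured in lists left out of the choice by presence. Each list was left out in turn and otherwise took part in the choice. For each pair of 1 left-out asynchronous G1E list and 1 left-out asynchronous G1E-ER4 list, regions were taken that had a peak in the other 2 G1E lists and in none of the other 2 G1E-ER4 lists or the 6 mitotic lists. Such regions numbered 6066 to 6772. The left-out G1E list held 57.7% to 63.0% of them over the 9 pairs, with a mean of 60.9%. In the left-out G1E-ER4 list the share was 6.15% to 10.9%, with a mean of 9.004%, so the ranges did not overlap. The difference was 51.9 percentage points (exact permutation test over the 6 libraries, two-sided, p = 0.05). That is the smallest p that 20 arrangements allow, so the test could not fall below its threshold of 0.05. Regions held by the left-out G1E list and not by the left-out G1E-ER4 list are the G1E-asynchronous sites themselves. The difference therefore describes how far these libraries repeated the pattern, and is not independent support for the sites.

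Against mitosis the difference was of similar size. Regions chosen in the same way from the 6 G1E lists, with none of the 6 G1E-ER4 lists, numbered 5896 to 6653. The left-out asynchronous list held 57.1% to 63.4% of them, and the left-out mitotic list 4.67% to 8.76%. The means were 60.5% and 7.00%, a difference of 53.5 points (exact permutation test, two-sided, p = 0.05, again the smallest possible). Here too, regions held by the left-out asynchronous list and not by the left-out mitotic list are the G1E-asynchronous sites. This difference is likewise not independent support for them. When regions were merged without the left-out lists, an alternative added after the data were seen, the differences were 52.1 and 53.7 points (exact permutation p = 0.05 each). Without 1 of the asynchronous G1E lists the choice rests on a single list, and the differences were 20.1 to 22.5 and 19.7 to 23.0 points (exact permutation p = 0.1 each, the smallest then possible).

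**Figure D1:**
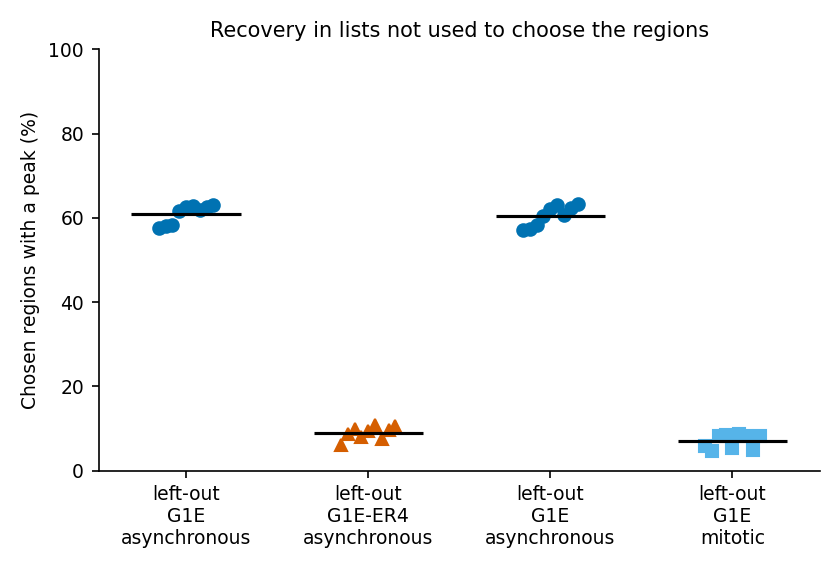
Percent of chosen regions with a peak (y axis) in the left-out list of each group (x axis), for the line comparison on the left and the stage comparison on the right. Each point is 1 of the 9 pairs of left-out lists, and the line is their mean, 60.9% against 9.004% and 60.5% against 7.00%.

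Recovery of such sites can be set beside that of asynchronous G1E regions at large. Of regions with a peak in any 2 asynchronous G1E lists, replicates 1, 2 and 3 when left out held 86.3%, 82.3% and 86.2%. Of those that also lacked a peak in the other 9 lists, they held 56.5% of 6105, 61.5% of 5611 and 61.5% of 5603. All these recovered regions are the 3448 sites, and a further 6975 regions had a peak in exactly 2 asynchronous G1E lists and none of the other 9. Regions not recovered stood lower in the lists that held them, with median mean ranks of 58981, 62152 and 62194 beside 50034, 51401 and 50806 for all regions chosen.

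The sites were narrower and lower in rank than other reproduced regions of asynchronous G1E. Their median width was 630 bp (217 to 5740), while the other 36611 regions of the 3 asynchronous G1E lists had a median of 1842 bp and all merged regions also one of 630 bp. Those other regions could take in peaks of the other groups when merged, so this gap follows in part from the rule. The gap was smaller for the best peak within each list. In replicates 1, 2 and 3 its median width was 564, 355.5 and 376 bp at the sites. At the other regions it was 1181, 498 and 609 bp. The matching sets of asynchronous G1E-ER4, mitotic G1E-ER4 and mitotic G1E stood lower still in their own lists, with median mean ranks of 53734, 61537 and 68265. Median widths of these sets were 804, 855 and 1012.5 bp. Nearly all G1E-asynchronous sites were simple, since 3176 (92.1%) consisted of exactly 1 peak per list. The summits of the 3 best peaks lay within a median of 43 bp, and within 100 bp in 2554 sites (74.1%). Median rank was 41817, 38516 and 40073 in replicates 1, 2 and 3, and signal there was 1.54, 1.37 and 1.39 times that of the last peak of the list at the median. Only 1 site ranked within the top 10000 of all 3 lists and 36 within the top 20000, or 1.04% of the sites against 36.0% of the other regions. At the lower end, 417 sites (12.1%) had a rank over 90000 in at least 1 list, against 4.41% of the other regions.

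Ranks of the sites agreed best between replicates 2 and 3. Spearman's rho over the 3448 sites was 0.540 for that pair, 0.335 for replicates 1 and 3 and 0.293 for replicates 1 and 2. Over the other 36611 regions it was 0.878, 0.835 and 0.766 for the same pairs. The values describe these libraries, the sites being neighbours on shared chromosomes and drawn from a narrower range of ranks, and no p is given.

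The share of asynchronous G1E regions that were found in no other list depended on rank. It was 0.0115% (1 of 8724) among regions with a mean rank within 10000, 1.59% from 10001 to 20000, 7.53% from 20001 to 30000 and 15.1% from 30001 to 40000. From 40001 to 90000 it stayed between 16.8% and 19.7%. In the same classes of asynchronous G1E-ER4 the share was 0% (0 of 9225), 0.0946%, 0.696% and 1.33%, and at most 7.78% below that. For mitotic G1E it passed 1% first at ranks 60001 to 70000 (1.55%), and for mitotic G1E-ER4 at 50001 to 60000 (1.66%). Asynchronous G1E had the highest share in every class up to rank 90000. Ranks are those in a group's own lists, so equal rank does not mean equal signal between groups. Nor do they show how near a region came to the limit of the other lists. Because presence in the lists defined the sites, these shares were not tested.

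**Figure D2:**
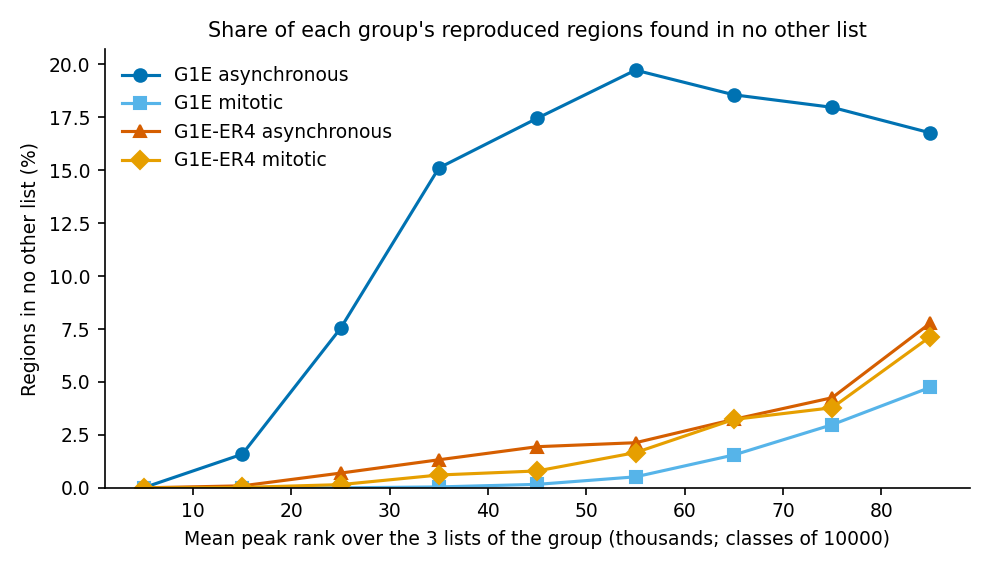
Percent of the regions shared by the 3 lists of a group that were found in no list of another group (y axis), by their mean rank in the group's own lists in classes of 10000 (x axis), for the 4 groups. Asynchronous G1E reaches 19.7% at ranks 50001 to 60000, where the other groups are at 0.520% to 2.13%; the class above 90000 holds under 100 regions per group and is not drawn.

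The 10 sites with the best mean rank were examined one by one, by position on mm9, since no gene annotation for mm9 was at hand. The best placed lies on chromosome 2 (chr2:83859624-83860798) and ranked 8159, 7502 and 4853 in replicates 1, 2 and 3, a mean of 6838 ± 1750 (SD, n = 3). It is the site within the top 10000 of all 3 lists, and its signal was 7.39, 3.63 and 6.31 times that of the last peak. The nearest peak of any other replicate list was 16725 bp away, and the nearest region of all 12 lists 293177 bp away. Its pooled asynchronous G1E rank was 7328, and it had no peak in the other pooled lists.

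Sites 2 and 3 stood much higher in replicates 2 and 3 than in replicate 1. The second (chr16:27506803-27507770) ranked 18931, 6252 and 5328, with its nearest peak of another list 37625 bp away. The third (chr2:78939310-78940685) ranked 16058, 4842 and 9713, with one 4278 bp away, in asynchronous G1E-ER4. More even ranks were seen at the fourth (chr4:44826545-44827171), at 11286, 8452 and 11488, whose nearest peak of another list was 56364 bp away and whose 3 summits lay within 37 bp. The fifth (chr2:13312355-13313953) ranked 14545, 4428 and 13468.

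The sixth site (chr18:89777653-89779077) was the most remote of the 10. It ranked 14141, 10641 and 8547, and the nearest peak of another list was 157855 bp away. The seventh (chr4:85549530-85550621) ranked 8294, 9508 and 16221, and its summits lay within 6 bp. Widest spread among the 10 was at the eighth (chr10:19635039-19635565), with ranks of 21093, 3131 and 10017, a mean of 11414 ± 9062 (SD, n = 3). This was also the one among them with a peak in a pooled list of another group, at rank 88878 in asynchronous G1E-ER4.

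The ninth site (chr2:151349686-151350807) ranked 16618, 7101 and 10561, with a peak of mitotic G1E 4570 bp away. The tenth (chr12:47810122-47812318) ranked 14571, 11250 and 9815 and was the widest of the 10, at 2197 bp. Of the 10 sites, 4 lie on chromosome 2, which held 260 of the 3448 sites (7.54%). All 10 were in the pooled asynchronous G1E list, at ranks from 7328 to 14506.

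**Figure D3:**
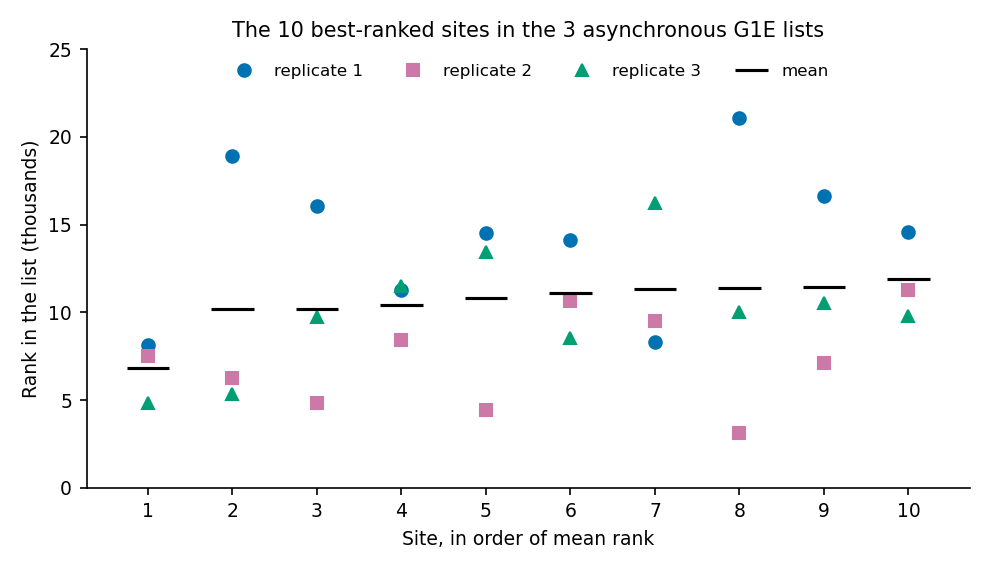
Rank of the 10 best-placed sites (x axis, in order of mean rank) in the 3 asynchronous G1E lists (y axis, highest signal at the bottom), with the mean of the 3 as a line. Replicate 1 gave the worst rank at 8 of the 10 sites, and the eighth site had the widest spread, from 3131 to 21093.

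The widest sites owed their width to replicate 1. The widest of all (chr4:9581747-9587486) spans 5740 bp, the width of its replicate 1 peak, while the best peaks of replicates 2 and 3 in it were 270 and 419 bp wide. The next (chr4:9550731-9556007) lies near it on the same chromosome and spans 5277 bp, with peaks of 452 and 511 bp in replicates 2 and 3. The last (chr5:75894410-75899387) spans 4978 bp, with peaks of 281 and 667 bp. Their mean ranks were 50767, 68545 and 53651. In the first the 3 summits lay 3701 bp apart, so the lists did not mark 1 common point there.

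The limit of the lists decided some memberships. Just inside the rule lay chr18:24365572-24367482, which ranked 80775, 95898 and 99999, chr1:9686924-9687318, at 33317, 99963 and 50527, and chr5:100394263-100395172, at 24201, 45440 and 99946. Just outside it lay chr3:57860650-57861472, which ranked 66618, 30210 and 21538 in asynchronous G1E and 99928 in mitotic G1E replicate 2. The next, chr3:116323443-116323999, ranked 20649, 28947 and 32837 and had rank 99919 in asynchronous G1E-ER4 replicate 2. At chr10:44154359-44154913 the ranks were 21202, 28134 and 29050, and the peak of mitotic G1E replicate 3 had rank 99908. In all, 2341 regions of the 3 asynchronous G1E lists missed the rule by 1 list. That list was most often asynchronous G1E-ER4 replicate 3 (499), replicate 2 (434) or mitotic G1E replicate 3 (424), and least often one of mitotic G1E-ER4 (33 to 91).

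The authors also deposited 1 pooled list per group, made from the same libraries and so not independent of the choice. The pooled asynchronous G1E list had a peak in 3446 of the 3448 sites, at a median rank of 36186. The pooled lists of asynchronous G1E-ER4, mitotic G1E and mitotic G1E-ER4 had one in 153 (4.44%), 57 (1.65%) and 16 (0.464%), whereas they held 90.3%, 81.9% and 69.9% of the other regions of the 3 asynchronous G1E lists. Median ranks of the peaks there were 85495, 87007 and 87766, near the end of those lists. At least 1 of the 3 pooled lists of other groups held 219 sites (6.35%), so 3229 sites had a peak in none of them. The share in a pooled list of another group was 10.6% to 13.4% when any 1 of the 3 asynchronous G1E-ER4 lists was left out of the choice, and 10.9% without mitotic G1E replicate 1.

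A few of these sites stood high in a pooled list of another group, and so go against their name. At chr12:77358076-77359000, with a mean rank of 77539 in asynchronous G1E, the pooled mitotic G1E-ER4 peak had rank 2343, and the nearest peaks of the replicate lists were 247 bp away. At chr7:52762957-52763294 and chr17:3113604-3114128 the pooled asynchronous G1E-ER4 peaks had ranks 8318 and 8561, with replicate peaks 96 and 59 bp away. Missing from the pooled asynchronous G1E list were chr12:55991502-55992278, which had a peak in the pooled asynchronous G1E-ER4 list at rank 85261, and chr1:132401445-132402131, which had none in any pooled list. These 5 sites were chosen after their values were seen.

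Peaks of the other groups that lay beside the sites were counted as well. A peak of a given list lay within 1000 bp of a site, without overlapping it, in 8.59% ± 0.778 of cases for asynchronous G1E-ER4, 6.57% ± 0.726 for mitotic G1E and 4.79% ± 0.812 for mitotic G1E-ER4 (SD, n = 3 lists each). For the other regions of the 3 asynchronous G1E lists that lacked a peak of that list, the shares were 17.7% ± 2.01, 13.9% ± 1.29 and 12.3% ± 0.582. All 9 lists were lower at the sites than at those regions, a description over shared sites that was not tested. The sites were chosen to lack all 9 lists, whereas those regions had only to lack the list in question. The lower shares are therefore not independent of the rule that chose the sites. For all merged regions lacking the list they were 14.9%, 14.3% and 14.1%. No peak of any of the 9 lists lay within 1000 bp of 2696 sites (78.2%), within 10000 bp of 857 (24.9%) and within 50000 bp of 143 (4.15%). The rule had already removed every region that overlapped such a peak. Matching shares for other regions were not computed, so these counts do not show whether the sites are unusually isolated.

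**Figure D4:**
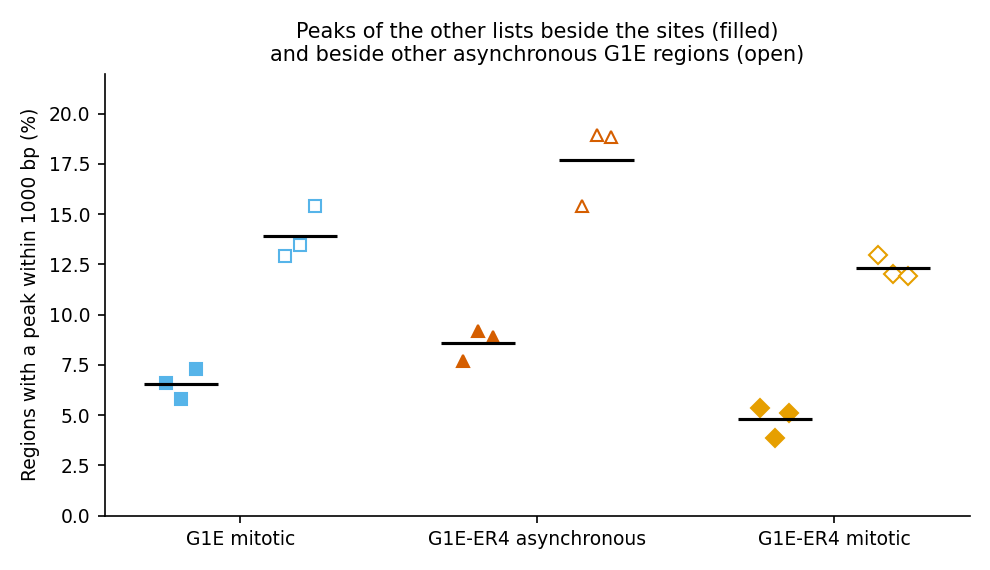
Percent of regions with a peak of another list within 1000 bp (y axis) for the 9 lists of the other groups (x axis), at the G1E-asynchronous sites (filled points) and at the other regions of the 3 asynchronous G1E lists that lack that list (open points); lines are means of 3 lists. Every filled point, from 3.86% to 9.19%, lies below every open one, from 11.9% to 18.9%.

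Distances from the sites to peaks of the other lists and to regions of all 12 lists were also measured. The median distance to the nearest peak of the other 9 lists was 3533 bp, and to the nearest region of all 12 lists 32772 bp. For the other regions of the 3 asynchronous G1E lists that were not themselves in all 12, the latter distance was 15802 bp. Those regions could hold peaks of the other groups, and had larger median widths and better median ranks than the sites. The difference in distance is therefore not independent of the rule, and it was not tested. Farthest from any peak of the other 9 lists was chr2:107719825-107720192, at 588848 bp, with ranks of 36586, 57778 and 32414, a site singled out after its values were seen.

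Sites were spread over all 19 autosomes with unequal density. Their share of the regions of the 3 asynchronous G1E lists had a median over chromosomes of 8.45% and ran from 5.16% on chromosome 17 to 15.0% on chromosome 3. Chromosomes 16, 13, 18, 10 and 6 followed chromosome 3, with 12.6%, 12.4%, 11.8%, 11.7% and 11.3%. Chromosomes 1 and 12 held the most sites, 378 and 279, and were also the chromosomes with the most regions of the 3 lists, 4315 and 4083. Chromosome 1 had 10.96% of the sites and 10.77% of those regions, and chromosome 12 had 8.09% and 10.2%. On these chromosomes all regions of the 3 lists stood low, with median mean ranks of 36157 and 44154 and 28618 on chromosome 14, where the other 16 autosomes had 19423 to 23501. The matching set of asynchronous G1E-ER4 had 90 of its 473 regions on chromosome 2 and 11 on chromosome 3. Regions shared by the 3 asynchronous G1E-ER4 lists were not counted by chromosome, so these counts have no such background beside them. What differs between these chromosomes was not tested.

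Some sites lay close together. Of the 3448, 732 (21.2%) lay within 10000 bp of another site, while the median distance to the nearest was 54992 bp. Regions of the 3 lists are themselves unevenly spread, and whether the sites are more grouped than other regions was not tested. Of the 1 Mb windows of the genome, 1274 held a site, and 193 of them held 5 or more, with 1392 sites between them. The fullest window, on chromosome 12 (chr12:101000001-102000000), had 19 sites among 123 regions of the 3 asynchronous G1E lists. Asynchronous G1E lists had 333, 382 and 353 peaks in it, and the other 9 lists 125 to 273.

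In the next window, on chromosome 1 (chr1:69000001-70000000), 18 of 46 such regions were sites. Replicates 1, 2 and 3 of asynchronous G1E had 90, 180 and 134 peaks there, a mean of 135 ± 45.0 (SD, n = 3), and the other lists 10 to 50. The window on chromosome 11 (chr11:11000001-12000000) had 16 sites of 44 regions, with 82, 93 and 90 peaks in asynchronous G1E and 12 to 43 in the other lists. In each of the 3 windows the asynchronous G1E lists had more peaks of any kind than every other list. The windows were picked for their number of sites, so these peak counts are descriptions.

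Elsewhere several sites followed one another with no other region of the 3 asynchronous G1E lists between them. Most sites, 2209, had no other site next to them in this order. Runs of 3 or more numbered 145, and 2 of them had 7 sites. One spans 48059 bp of chromosome 10 (chr10:17268407-17316465). Each asynchronous G1E list had 9 peaks in it, and 8 of the other 9 lists had none, while mitotic G1E-ER4 replicate 3 had 1. Mean ranks of its sites ran from 18292 to 48099. The highest, chr10:17309546-17310627, ranked 31057, 11221 and 12597.

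The other run spans 65338 bp of chromosome 3 (chr3:20128893-20194230). Asynchronous G1E replicates had 8, 8 and 7 peaks in it, and none of the other 9 lists had any. Its sites had mean ranks from 22567 to 73249, the highest being chr3:20141626-20142503, at 27376, 19584 and 20742. Both runs lay far from regions of all 12 lists, with distances of at least 124344 bp for every site in them. The runs were picked for their length after the sites had been placed. By the rule each site holds a peak of every asynchronous G1E list and none of the other 9. The peak counts in the runs therefore follow largely from the choice and are descriptions.

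**Figure D5:**
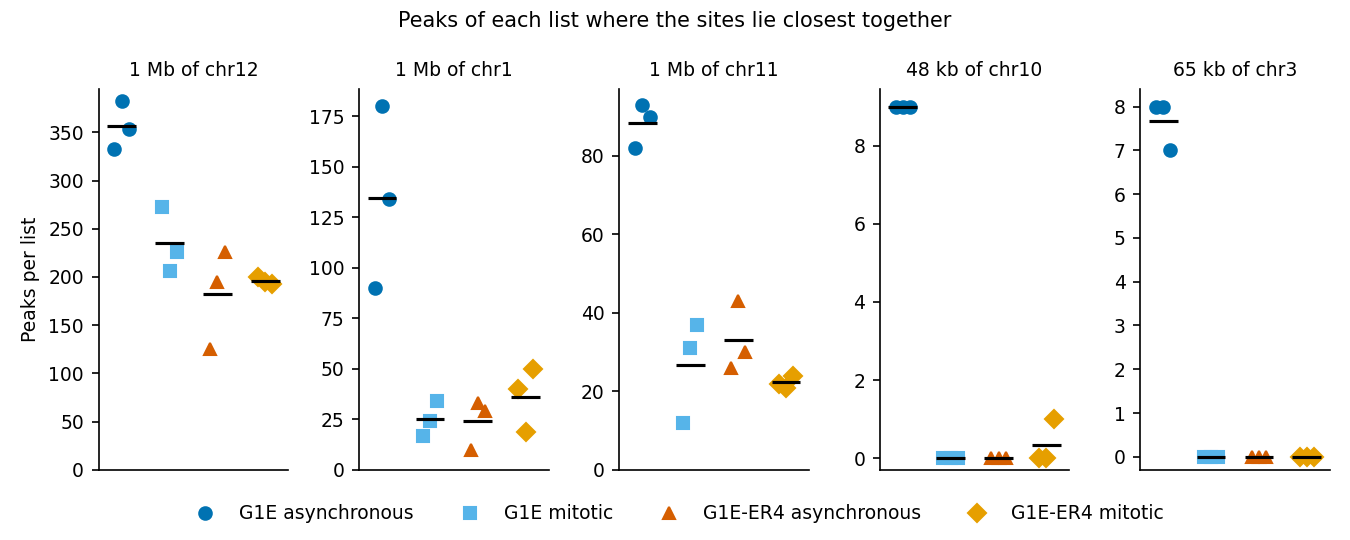
Peaks per list (y axis, own scale in each panel) in the 3 windows of 1 Mb with the most sites and in both runs of 7 sites, for the 4 groups; points are libraries and lines their means. In each panel the 3 asynchronous G1E lists lie above the other 9 lists, as on chromosome 10 with 9 peaks each against 0 or 1. Windows and runs were picked for their sites, so this order follows in part from the rule, and in the runs largely so.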

How the data were processed

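DNase-seq peak lists of 12 mouse libraries, 3 in each of 4 groups, were used with the authors' 4 pooled lists. Reads were aligned to mm9, and Bowtie is named, per the submitters' processing notes; the sources used here give no version, peak caller or filter. Each deposited list gives position, summit and signal of 100000 peaks in descending order of signal. The normalization of the signal is not stated, so the deposited signal served only for ranks and for ratios within a list.

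Positions are counted from 1. Peaks on chromosomes 1 to 19 were merged where they shared at least 1 bp (bedtools 2.31.1 gave the same 263720 regions), and a region's rank in a list is that of its best peak. Groups came from the sample labels. The members and lists were chosen with earlier results of these data known. Named sites are the 10 with the best mean rank, the 3 widest, the 3 windows of 1 Mb with the most sites, and the 3 nearest to the rule's limit on either side. The left-out comparisons took an exact permutation test over libraries with a threshold of 0.05. Alternatives were each list left out, the 50000 highest peaks, 300 bp around summits, stricter overlap, chromosome X, other presence rules, other windows and, chosen after seeing the data, equal covered length and merging without the left-out lists. The procedure was tested on simulated data, where all 200 planted sites of asynchronous G1E only were found. Each simulated peak was made to cover the centre of its region. This checked the calculation only, not how well sites are found among real peaks. No 2 files were identical.

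No genome or annotation of build mm9 was used here, so nearest genes, gene lists, motifs and sequences were not analysed here. Software was Python 3.11.15 with scipy 1.17.1, pandas 2.3.3, numpy 2.4.6 and matplotlib 3.10.9.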

Additional observations from a re-analysis of the deposited data

Results flagged for a closer look

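Chromosome X lay outside the rule that chose the sites and also held regions of asynchronous G1E only. By the same criterion, 117 of the 636 X regions shared by the 3 asynchronous G1E lists (18.4%) had no peak in the other 9 lists, a larger share than on any autosome. The other groups had 2 such regions in asynchronous G1E-ER4, of 441, and 0 of 262 and 0 of 233 in mitotic G1E and mitotic G1E-ER4. The 117 regions had a median width of 448 bp and a median mean rank of 37993. Peaks on X numbered 914 to 1110 per asynchronous G1E list, 630 to 647 in asynchronous G1E-ER4, 319 to 500 in mitotic G1E and 358 to 439 in mitotic G1E-ER4. The difference was not tested. It is given here because the choice of sites did not use chromosome X.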

How the results depend on the processing

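Without read counts, a site below a list's rank limit cannot be told from a closed one. When 1 list was left out, the number of sites ran from 3480 to 6377, their median width from 448 to 649 bp, their median mean rank from 42777 to 51381, their share in a pooled list of another group from 6.28% to 13.4%, and the mean share with a nearby peak of another list (6.65% over the 9 lists) from 6.54% to 9.41%. The highest numbers were 6377, 5623 and 5618, without asynchronous G1E replicate 1, 2 or 3, where presence in only 2 lists was asked for. The left-out differences ran from 20.1 to 53.0 points by line and from 19.7 to 54.5 by stage. Among the 50000 highest peaks 2627 sites were found, with a median mean rank of 29207, a pooled share of 4.72% and a nearby share of 4.25%. With 300 bp around each summit 3588 sites had a median width of 340 bp, and overlap of at least 0.5 of the shorter peak gave a pooled share of 7.24%. Presence in at least 2 of the 3 lists gave 10423 sites, and windows of 500 and 5000 bp nearby shares of 3.08% and 30.1%. At equal covered length, with unequal numbers of peaks per list, 1531 sites had a median width of 1001 bp, a median mean rank of 23188 and a pooled share of 0.327%. The pooled lists were shortened in the same way there and for the 50000 highest peaks. Those pooled shares therefore do not compare directly with the 6.35% of the full lists. The left-out differences had the same direction in all settings run. As each setting chose regions by presence in these same libraries, the differences are not independent support for the sites. With the replicate block they were 51.9 and 53.5 points with an exact permutation p = 0.125 each, the smallest that 8 arrangements allow. Same-numbered lists deviated together weakly, with correlations over regions of 0.00430 to 0.0383 by line and 0.00483 to 0.0509 by stage. Between lists of different number they were -0.0337 to 0.0133 by line and -0.0363 to 0.0231 by stage. As all values were small, the numbers were not taken to pair the libraries, a choice that was not tested. By line 5 of 6 lists correlated best with their own number, by stage 2 of 6. Motif and sequence windows and the overlap rule for the left-out differences were not run.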
